A study of Homo sapiens with 10 samples.

Results

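The ATF4 response, serine and one-carbon genes described here are 10 of the 58174 genes in a table of RNA sequencing from the human line SH-SY5Y. They are ATF4, ATF3, DDIT3, TRIB3, ASNS, PHGDH, PSAT1, PSPH, SHMT2 and MTHFD2, and their rows were found by gene symbol, from a list drawn up with earlier results of these data known. Each symbol matched 1 row, and all 10 genes passed the filter on low values (mean level over the 10 libraries not under 1 TPM), so the counts below are over 10 of 10. Levels are given in TPM, a relative abundance per transcript length that the authors computed and that adds up to the same total in each library, so levels of different genes can be set side by side.

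SH-SY5Y is an established neuroblastoma line with neuron-like properties. The siRNA experiment has 3 libraries from cells transfected with a control pool (siControl) and 3 from cells transfected with a pool against TDP-43 (siTDP-43), each at 50 nM for 96 hours. The genotype experiment, described as genome editing, has 2 libraries with wild-type TDP-43 (numbered 79 and 80) and 2 with homozygous mutant TDP-43 N352S (numbered 81 and 82), with no siRNA in their labels. Whether the wild-type libraries come from edited clones or from unedited parental cells is not stated. TDP-43, encoded by TARDBP, binds RNA in the nucleus and acts in splicing and transcript processing. The libraries of a group are described as biological replicates, but whether they came from separate cultures is not stated, nor whether each genotype is 1 clone or several. The p-values therefore measure only library-to-library spread, which may be technical.

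The siRNA target was checked in every library. TARDBP was at 255.53, 255.57 and 256.30 TPM in siControl and at 62.26, 63.12 and 67.67 TPM in siTDP-43, so that the depleted cells kept 25.2% of the control level (log2 change -1.98 ± 0.04 SE, limma adjusted p = 3.84e-08). In the genotype experiment TARDBP was also lower in N352S, at 122.80 and 122.33 TPM against 195.53 and 205.39 TPM in wild type, or 61.1%. Noradrenergic markers of the line summed to 3283 to 3394 TPM in siControl and 3303 to 3371 in siTDP-43. They summed to more in the genotype experiment, 3671 to 3747 TPM in wild type and 3664 to 3780 in N352S. At least 8 of 9 were at or above 1 TPM in each group. Markers of other cell types also moved with the groups. The 6 Schwann cell markers, most of it PMP22 and with SOX10 at 0 in all siControl libraries, summed to 58.4 to 58.9 TPM in siControl, 32.8 to 35.2 in siTDP-43, 54.5 to 62.0 in wild type and 66.7 to 70.3 in N352S. PMP22 itself fell on depletion (log2 change -0.82, limma adjusted p = 3.04e-05). The 6 fibroblast markers summed to 93.7 to 106 TPM in siControl, 120 to 129 in siTDP-43, 71.6 to 93.5 in wild type and 81.3 to 84.4 in N352S. Single markers among them went opposite ways. COL3A1 rose on depletion (log2 change 0.63) and fell with N352S (-1.34), whereas PDGFRA fell on depletion (-0.48) and rose with N352S (0.52). On depletion 1 of the 6 was called lower and 2 higher, beside 19.8% and 6.19% of all tested genes. With N352S 2 were lower and 1 higher, beside 11.9% and 8.28%. Mitochondrially encoded genes took 11.998% to 14.3% of TPM in siControl, 15.5% to 16.2% in siTDP-43 and 13.6% to 14.8% in the genotype libraries. The part of the markers in the changes below was not tested, and that of the mitochondrial share was not tested beyond a rescaling without these genes.

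ATF4 is the transcription factor through which cells respond to a shortage of amino acids or to stress in the endoplasmic reticulum. Kinases that sense those stresses phosphorylate the translation factor eIF2, general protein synthesis falls, and ATF4 mRNA is translated more, so that much of ATF4 regulation takes place above the level of its mRNA. ATF4 pairs with other bZIP proteins and binds the C/EBP-ATF response element in genes of amino acid synthesis and uptake. Its targets include other regulators of the response (ATF3, DDIT3, TRIB3), asparagine synthetase (ASNS), the enzymes that make serine from a glycolytic intermediate (PHGDH, PSAT1, PSPH) and the mitochondrial enzymes that pass the carbon of serine to folate (SHMT2, MTHFD2). In neuroblastoma, ATF4 is known to act together with MYCN on serine and one-carbon genes, and DDIT3 is best known for its role when the stress is prolonged.

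Because ATF4 binds the C/EBP-ATF response element, promoters from RefSeq (GRCh38.p14) were searched for it in the 250 bases before each gene start. The letters searched were TGATGNAAN on both strands. Of the 10 genes, 8 matched the promoter table (PSPH and SHMT2 did not), and 2 of the 8 held a match, ASNS and ATF3. Each of these held it in 1 of its 2 promoters in the table. A match was present in 3.13% of all 35116 promoters, belonging to 3.87% of all 27305 genes. Several genes of the related lists described below also held one, among them PPP1R15B. No gene of the methionine list or of the ATF6 and XBP1 list did. The matches of ASNS and ATF3 are printed with those of CHAC1 and CEBPG, related genes whose levels are given below, in the direction of each gene, with the 9 matching bases in capitals.
ASNS: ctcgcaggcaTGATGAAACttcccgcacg
ATF3: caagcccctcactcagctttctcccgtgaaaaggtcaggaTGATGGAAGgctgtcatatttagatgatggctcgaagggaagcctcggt
CHAC1: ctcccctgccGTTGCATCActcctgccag
CEBPG: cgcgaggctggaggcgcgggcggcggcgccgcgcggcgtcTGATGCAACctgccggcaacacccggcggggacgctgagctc
The ASNS stretch is chr7:97872458-97872486 on the minus strand, with its match 60 to 68 bases before the RefSeq start and inside an ASNS exon of GENCODE release 29. The ATF3 stretch is chr1:212565176-212565264 on the plus strand, upstream of every GENCODE exon nearby, with its match 183 to 191 bases before the start. The CHAC1 stretch is chr15:40953251-40953279 on the plus strand and holds the element in the reverse direction, inside a CHAC1 exon. The CEBPG stretch is chr19:33374031-33374112 on the plus strand, with its match 34 to 42 bases before the start. A match is a description of the letters only, and the genes without one (ATF4, DDIT3, TRIB3, PSAT1, PHGDH and MTHFD2) lack these letters in this window only.

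The ranking of the 10 genes by level differed between the experiments. In siControl the order of mean TPM was ATF4 (159), MTHFD2 (99.1), PHGDH (88.5), ASNS (82.8), PSAT1 (68.3), PSPH (60.0), SHMT2 (51.2), TRIB3 (15.8), DDIT3 (14.3) and ATF3 (9.91), and no neighbours in that order had overlapping libraries. In siTDP-43 the order was ATF4, MTHFD2, PSAT1, PHGDH, ASNS, PSPH, SHMT2, DDIT3, TRIB3 and ATF3, and the libraries of PHGDH and ASNS, and of ASNS and PSPH, overlapped. In wild type and N352S alike ASNS stood highest, followed by ATF4, PHGDH, MTHFD2, SHMT2, PSAT1, PSPH, DDIT3, TRIB3 and ATF3, again without overlap between neighbours. The 3 regulators ATF3, DDIT3 and TRIB3 were the lowest genes in every library.

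**Figure D1:**
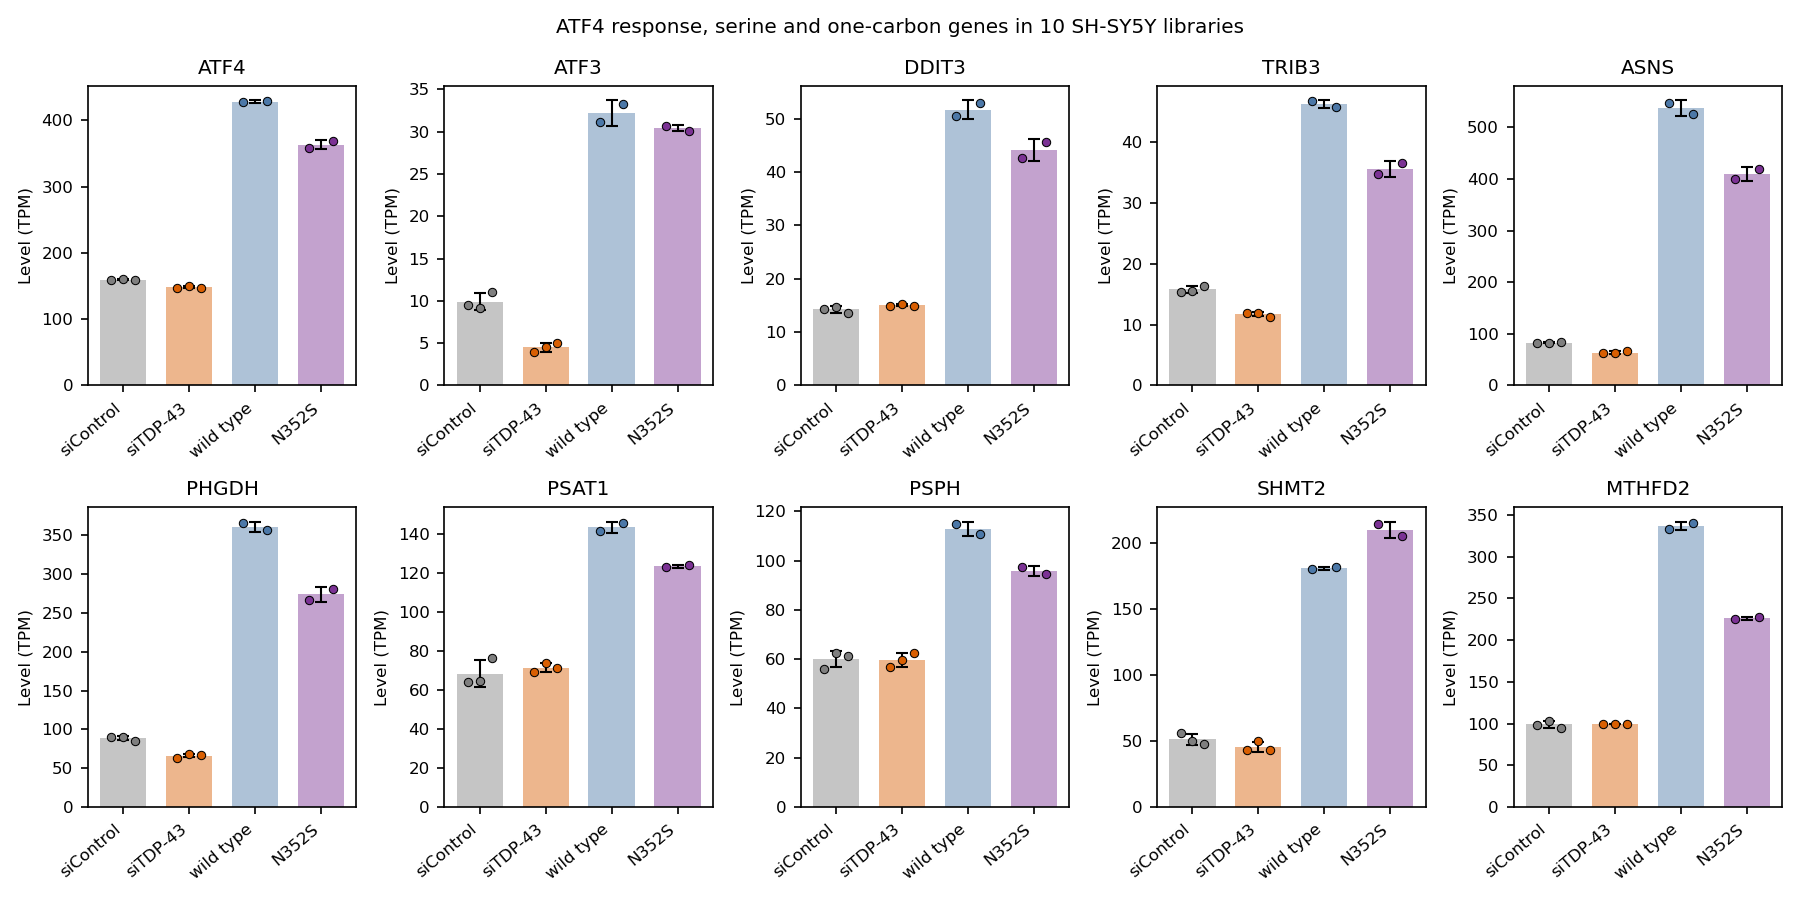
Level of each gene in TPM (vertical axis, from 0, scaled per gene) in the 4 groups. Points are libraries, bars are means and error bars are SDs (n = 3 for siControl and siTDP-43, n = 2 for wild type and N352S). All genotype libraries lie above all siControl libraries for every gene, and the siTDP-43 mean of ATF3 is 45.5% of its siControl mean.

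The comparison of siTDP-43 with siControl asks whether loss of TDP-43 changes these genes. ATF3 fell most, to 45.5% of control. TRIB3, PHGDH and ASNS fell to 74.0%, 74.7% and 77.2% of control, and ATF4 to 93.1%, a call that depended on the settings. DDIT3, PSAT1, PSPH, SHMT2 and MTHFD2 did not pass the test. In all, 5 of 10 genes were lower and none higher at a limma adjusted p under 0.05, where 19.8% of all 17118 tested genes were lower and 6.19% higher. With median-of-ratios scaling 4 of the 10 were lower, and the calls over all tested genes moved from 3389 lower and 1059 higher to 2077 lower and 1944 higher. The median of the 10 log2 changes was -0.14, beside -0.08 over all tested genes, and 7 of 10 estimates were below 0, beside 64.6% of all tested genes.

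Among the regulators, ATF4 (ENSG00000128272, chr22:39519695-39522685) was at 158.58, 160.16 and 159.45 TPM in siControl and at 147.59, 150.50 and 147.02 TPM in siTDP-43. The groups did not overlap, and the gap between them was small beside the level (log2 change -0.10 ± 0.03 SE, limma adjusted p = 0.0219). This call was lost in 7 of 21 alternative analyses. Other scalings shrank the change itself, to -0.016 with median of ratios (adjusted p = 0.747), -0.026 with quantile normalization (0.558) and -0.062 without mitochondrially encoded genes (0.141). Without a variance trend (0.0802), or without siControl 2 (0.0675), siTDP-43 1 (0.073) or siTDP-43 3 (0.0784), the change stayed between -0.103 and -0.096. ATF3 (ENSG00000162772, chr1:212565334-212620777), a bZIP factor induced early in many stresses, was at 9.56, 9.11 and 11.05 TPM in siControl. It was at 3.92, 4.57 and 5.02 TPM in siTDP-43, with every depleted library below every control (log2 change -0.99 ± 0.09 SE, limma adjusted p = 0.000153). The ATF3 call held in all 21 alternatives.

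TRIB3 (ENSG00000101255, chr20:362835-397559), a pseudokinase that feeds back on ATF4, was at 15.38, 15.56 and 16.39 TPM in siControl and at 11.88, 11.82 and 11.31 TPM in siTDP-43. The groups were clearly apart (log2 change -0.40 ± 0.05 SE, limma adjusted p = 0.000431). DDIT3 (ENSG00000175197, chr12:57516588-57521737), which encodes the factor CHOP, was at 14.41, 14.76 and 13.60 TPM in siControl and at 14.95, 15.30 and 14.97 TPM in siTDP-43. The depleted libraries all lay above the controls, yet the change of 0.08 ± 0.05 SE on the log2 scale did not pass the test (limma adjusted p = 0.288). Its 95% interval, not adjusted for the number of genes, ran from -0.03 to 0.19. The ratio of ATF3 to DDIT3 within a library was 0.617 to 0.813 in siControl and 0.262 to 0.335 in siTDP-43.

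ASNS (ENSG00000070669, chr7:97852118-97872542), which makes asparagine from aspartate and carries the element printed above, was at 83.13, 81.55 and 83.81 TPM in siControl and at 63.74, 62.05 and 65.96 TPM in siTDP-43. All depleted libraries were lower (log2 change -0.37 ± 0.04 SE, limma adjusted p = 0.00019). PHGDH (ENSG00000092621, chr1:119648411-119744226), the enzyme that commits carbon to serine synthesis, was at 89.78, 90.57 and 85.27 TPM in siControl and at 63.59, 67.82 and 67.13 TPM in siTDP-43. It fell by a similar amount (log2 change -0.41 ± 0.04 SE, limma adjusted p = 0.000187).

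The later enzymes of serine synthesis did not follow PHGDH past the test. PSAT1 (ENSG00000135069, chr9:78297143-78330093), the aminotransferase of the pathway, was at 64.24, 64.36 and 76.30 TPM in siControl and at 69.07, 73.81 and 71.12 TPM in siTDP-43. The groups overlapped because of siControl 3, and without that library PSAT1 passed the test as higher. As tested with all libraries its log2 change was 0.07 ± 0.06 SE (limma adjusted p = 0.494, 95% interval -0.08 to 0.21). PSPH (ENSG00000146733, chr7:56011051-56051604), the phosphatase that releases serine, was at 56.20, 62.63 and 61.22 TPM in siControl and at 56.91, 59.66 and 62.53 TPM in siTDP-43. These values overlapped fully, with a 95% interval of the log2 change from -0.12 to 0.11. Within each library the ratio of PHGDH to PSAT1 was 1.12 to 1.41 in siControl and 0.919 to 0.944 in siTDP-43.

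Of the mitochondrial folate enzymes, SHMT2 (ENSG00000182199, chr12:57229327-57234935), which splits serine into glycine and a folate-bound carbon, was at 56.13, 49.96 and 47.54 TPM in siControl and at 43.10, 49.96 and 43.33 TPM in siTDP-43. The groups overlapped, and the log2 change of -0.17 ± 0.07 SE did not pass the test (limma adjusted p = 0.12) unless siTDP-43 2 was left out. MTHFD2 (ENSG00000065911, chr2:74198562-74217565), which oxidises the folate-bound carbon, was at 98.45, 103.64 and 95.21 TPM in siControl and at 99.29, 99.57 and 98.90 TPM in siTDP-43. Its depleted libraries lay inside the range of the controls, and the 95% interval of the log2 change ran from -0.08 to 0.08.

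The comparison of N352S with wild type asks how the same genes stand in cells with the mutation. MTHFD2 fell most, to 67.2% of wild type. PHGDH, ASNS, TRIB3, ATF4, PSPH and DDIT3 also fell, to between 75.9% and 85.3%. SHMT2, its partner in the mitochondrial pathway, was the only 1 of the 10 with a higher level in N352S, without passing the test, and ATF3 and PSAT1 did not pass it either. In all, 7 of 10 genes were lower and none higher, where 11.9% of all tested genes were lower and 8.28% higher. The median log2 change was -0.24, beside -0.03 over all tested genes, and 9 of 10 estimates were below 0, beside 55.5% of all tested genes.

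Among the regulators, ATF4 was at 426.98 and 429.69 TPM in wild type and at 358.49 and 368.10 TPM in N352S. Both mutant libraries were lower (log2 change -0.24 ± 0.03 SE, limma adjusted p = 0.0013). TRIB3 was at 46.58 and 45.64 TPM in wild type and at 34.64 and 36.50 TPM in N352S (log2 change -0.37 ± 0.06 SE, limma adjusted p = 0.00237). DDIT3 was at 50.46 and 52.96 TPM in wild type and at 42.66 and 45.57 TPM in N352S. Both DDIT3 libraries of the mutant were lower (log2 change -0.22 ± 0.06 SE, limma adjusted p = 0.0278), but the call was lost in 6 of 20 alternatives, among them median-of-ratios scaling, quantile normalization, a fit of only these groups, and omission of wild type 79, wild type 80 or N352S 81. ATF3 was at 31.12 and 33.26 TPM in wild type and at 30.62 and 30.12 TPM in N352S, a log2 change of -0.08 ± 0.11 SE that did not pass (limma adjusted p = 0.659). Its 95% interval ran from -0.33 to 0.17.

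ASNS was at 548.22 and 526.85 TPM in wild type and at 400.72 and 419.66 TPM in N352S (log2 change -0.39 ± 0.04 SE, limma adjusted p = 0.000385). PHGDH was at 365.60 and 356.64 TPM in wild type and at 267.21 and 281.04 TPM in N352S (log2 change -0.40 ± 0.05 SE, limma adjusted p = 0.000661). Both genes were lower in each mutant library. PSPH was at 114.98 and 111.02 TPM in wild type and at 97.43 and 94.50 TPM in N352S. It passed the test narrowly (log2 change -0.23 ± 0.06 SE, limma adjusted p = 0.0292), and the call was lost when any of the 4 genotype libraries was left out, without a variance trend, or without the filter. PSAT1 was at 141.17 and 145.22 TPM in wild type and at 122.68 and 123.74 TPM in N352S. The groups did not overlap, but the log2 change of -0.22 ± 0.08 SE did not pass (limma adjusted p = 0.0864) except in a fit of only these groups and in one without siControl 3, each of which changes the estimate of spread.

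Of the mitochondrial enzymes, MTHFD2 fell and SHMT2 did not pass the test. MTHFD2 was at 333.23 and 340.35 TPM in wild type and at 225.17 and 227.57 TPM in N352S (log2 change -0.57 ± 0.04 SE, limma adjusted p = 3.88e-05), and the call held in all 20 alternatives. SHMT2 was at 180.04 and 181.54 TPM in wild type and at 214.15 and 205.30 TPM in N352S. Both mutant libraries were higher, but the log2 change of 0.21 ± 0.09 SE did not pass the test (limma adjusted p = 0.127) except in a fit of only these groups. Within a library, the ratio of MTHFD2 to SHMT2 was 1.85 and 1.87 in wild type and 1.05 and 1.11 in N352S. In the siRNA libraries it was 1.75 to 2.07 in siControl and 1.99 to 2.30 in siTDP-43, which overlap.

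**Figure D2:**
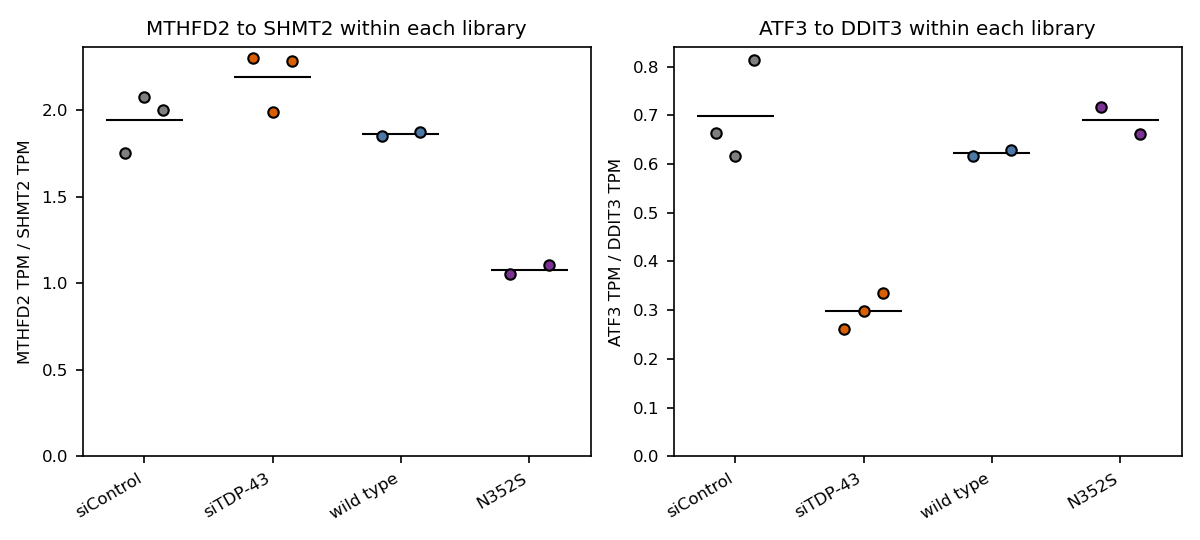
Ratio of TPM within each library, MTHFD2 to SHMT2 on the left and ATF3 to DDIT3 on the right, in the 4 groups (points are libraries, lines are group means, vertical axes from 0). The MTHFD2 to SHMT2 ratio is near 1 in both N352S libraries and at 1.75 or more in all others, and the ATF3 to DDIT3 ratio is at 0.335 or less in the siTDP-43 libraries and at 0.617 or more in all others.

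Whether depletion and mutation acted differently was tested as the difference between the log2 changes (knockdown minus mutation), for which the compared groups share no library. ATF3 fell more on depletion than with N352S (difference -0.91 ± 0.14 SE, limma adjusted p = 0.00231). MTHFD2 fell with N352S relative to depletion (difference 0.57 ± 0.06 SE, limma adjusted p = 0.000172), and so did DDIT3 (difference 0.30 ± 0.08 SE, limma adjusted p = 0.0224). SHMT2 differed in the other direction (difference -0.38 ± 0.11 SE, limma adjusted p = 0.042), a call that was lost in 13 of 20 alternatives. The DDIT3 call was lost without wild type 80 or N352S 81. In all, the difference passed the test on the lower side for 2 genes and on the higher side for 2, where 13.8% and 8.2% of all tested genes did.

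For TRIB3, ASNS and PHGDH the changes in the separate experiments were of similar size. The 95% intervals of their differences ran from -0.21 to 0.13 for TRIB3, from -0.11 to 0.15 for ASNS and from -0.16 to 0.13 for PHGDH, so a difference of that size remains possible, and the sign of each estimate turned in some alternatives. The differences of ATF4 (0.13 ± 0.04 SE, limma adjusted p = 0.0522), PSAT1 (0.28 ± 0.10 SE, limma adjusted p = 0.0791) and PSPH (0.23 ± 0.08 SE, limma adjusted p = 0.0762) did not pass the test. With the replicate number of the siRNA libraries as a block, PSPH passed it.

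**Figure D3:**
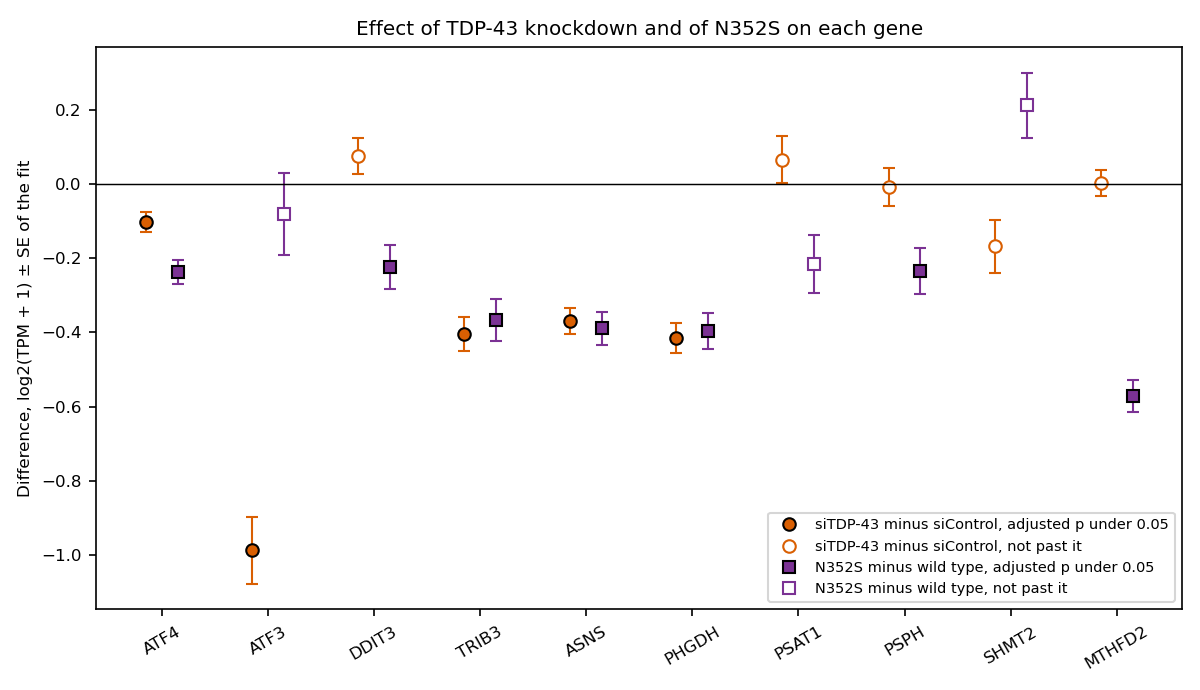
Difference in log2(TPM + 1) with the SE of the fit (vertical axis) for each gene, as siTDP-43 minus siControl (circles) and N352S minus wild type (squares). Filled symbols passed an adjusted p under 0.05, which 5 genes did on depletion and 7 with N352S, all below 0.

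Set against siControl as a second reference, all 10 genes were far higher in the wild-type libraries of the genotype experiment. The rise was 6.49-fold in mean TPM for ASNS, the largest of the 10, and 1.88-fold for PSPH, the smallest. All 10 passed the test as higher, where 14.8% of all tested genes did and 24.8% were lower. The median log2 difference was 1.68, beside -0.06 over all tested genes. On the log2 scale the differences were 1.42 ± 0.03 SE for ATF4, 1.61 ± 0.10 SE for ATF3, 1.79 for DDIT3, 1.49 for TRIB3, 2.68 for ASNS, 2.02 for PHGDH, 1.06 for PSAT1, 0.90 for PSPH, 1.80 for SHMT2 and 1.76 for MTHFD2, with limma adjusted p of at most 1.70e-05. N352S libraries also stood above siControl for all 10 genes, from 1.60-fold for PSPH to 4.95-fold for ASNS, where 19.6% of all tested genes were higher and 33.6% lower. All 10 genes were called higher in both of these comparisons in each of 20 alternatives.

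These comparisons share their libraries with the other two, and each lower level in N352S stands between a wild-type level and a much lower siControl level. The gap between wild type and N352S was smaller than the gap between N352S and siControl for every gene, for example 0.57 against 1.18 on the log2 scale for MTHFD2 and 0.24 against 1.18 for ATF4. The wild-type and siControl libraries differ in the siRNA their labels name, in the experiment they belong to and, if the wild-type cells are edited clones, in editing. These cannot be told apart, so which of the 2 references is nearer to untreated SH-SY5Y cells cannot be read from the data.

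**Figure D4:**
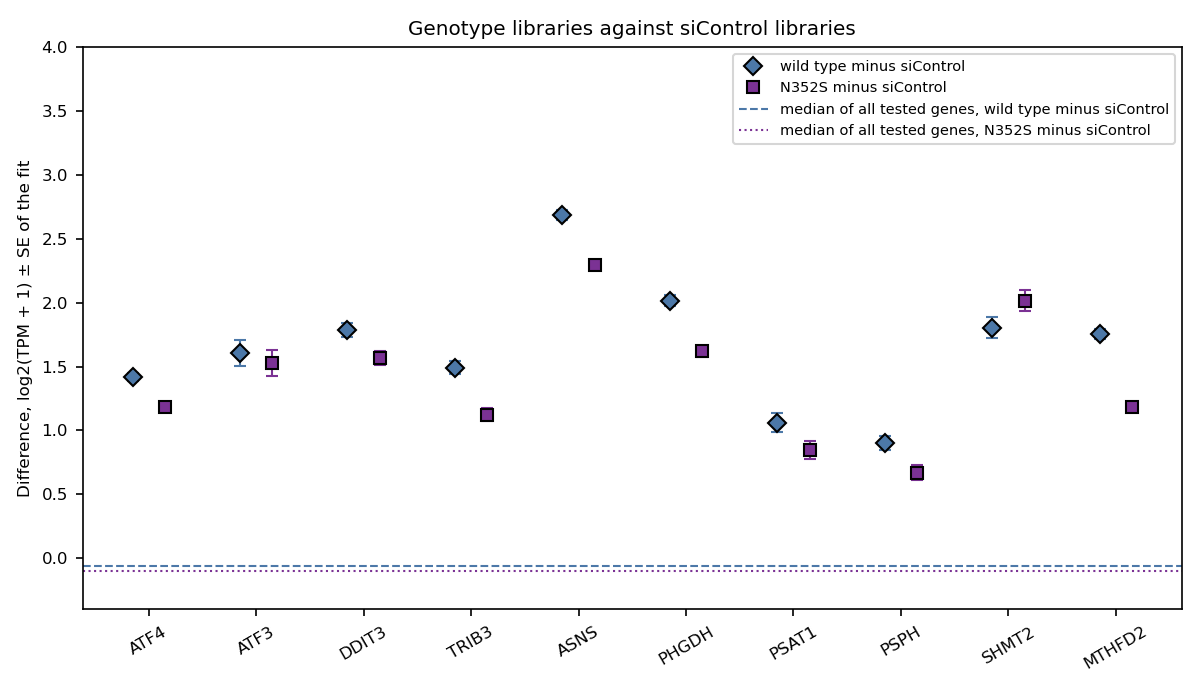
Difference in log2(TPM + 1) from siControl with the SE of the fit for wild type (diamonds) and N352S (squares). Lines mark the medians of all 17118 tested genes, at -0.06 and -0.10, and every one of the 10 genes lies above 0.6.

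The wider pathway was described with 8 lists of related genes, whose counts stand beside the shares of all tested genes that were lower and higher, 19.8% and 6.19% on depletion and 11.9% and 8.28% with N352S. Among the kinases that phosphorylate eIF2 and its factors, 8 of 12 tested genes fell on depletion and none rose, and with N352S 3 fell and 2 rose. Leaving out any siRNA library other than siControl 1 gave a count of 5 on depletion, and without wild type 79, wild type 80 or N352S 81 only 1 fell with N352S, and without wild type 79 or N352S 81 only 1 rose. PERK (EIF2AK3), the kinase that senses stress in the endoplasmic reticulum, fell from 24.3 to 17.1 mean TPM on depletion (log2 change -0.49, limma adjusted p = 0.000944) and rose from 13.6 to 19.3 with N352S (log2 change 0.47, limma adjusted p = 0.00373). GCN2 (EIF2AK4), which senses uncharged tRNA, also fell on depletion (-0.24) and rose with N352S (0.29), and for both genes the difference between the effects passed the test (limma adjusted p = 0.000305 for EIF2AK3 and 0.00148 for EIF2AK4). PPP1R15B, a subunit of the phosphatase that resets eIF2, fell on depletion (log2 change -0.45, limma adjusted p = 0.000579) and had a log2 change of -0.04 with N352S that did not pass, and its difference between the effects passed (limma adjusted p = 0.0101).

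Among bZIP partners and other transcription regulators, 7 of 10 tested genes fell on depletion and 7 with N352S, and none rose in either. That none rose with N352S depended on the settings. In that comparison 1 rose with a pseudocount of 0.1, without the filter, without a variance trend, with median-of-ratios scaling or with quantile normalization. With any genotype library left out, 3 or 4 fell with N352S. ATF5, a close relative of ATF4, averaged 13.1 TPM in siControl and 9.63 in siTDP-43, against 31.2 in wild type and 14.0 in N352S, and its fall was larger with N352S (log2 change -1.11) than on depletion (-0.41, limma adjusted p of the difference = 0.00299). MYC fell in both experiments, by 0.40 and 0.56 on the log2 scale. MYCN, named above with ATF4, fell on depletion (log2 change -0.49, limma adjusted p = 0.00121). With N352S its change of 0.26 did not pass (limma adjusted p = 0.0568), and the difference between the effects passed (limma adjusted p = 0.0015). Unlike MYC, MYCN was lower in wild type than in siControl (4.22 against 7.88 mean TPM). CEBPG, a bZIP partner that carries the element printed above, fell with N352S from 59.0 to 47.8 mean TPM (log2 change -0.30, limma adjusted p = 0.0087) and had a log2 change of -0.13 on depletion that did not pass.

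Of the other stress targets of ATF4, 6 of 13 tested genes fell and 1 rose on depletion, and 9 fell and 1 rose with N352S. On depletion 3 fell without siTDP-43 1, and 3 rose without siControl 3. CHAC1, an enzyme that degrades glutathione, averaged 4.17 TPM in siControl and 3.12 in siTDP-43, against 92.4 in wild type and 45.1 in N352S. Its log2 change was -1.02 with N352S (limma adjusted p = 0.000181) and -0.33 on depletion (limma adjusted p = 0.0167). DDIT4, an inhibitor of mTORC1 signalling, also fell in both (-0.68 and -0.34). GDF15, a secreted stress cytokine, was the 1 gene of the list that rose, from 1.253 to 2.53 mean TPM on depletion (log2 change 0.65, limma adjusted p = 0.00478) and from 3.83 to 9.44 with N352S (log2 change 1.11, limma adjusted p = 0.00108).

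Amino acid transporters fell with N352S in 9 of 11 tested genes, and on depletion 4 fell and 1 rose. Without siControl 3, siTDP-43 1 or siTDP-43 2, only 2 fell on depletion and none rose, and without siControl 1 none rose. SLC7A5, the light chain of a transporter of large neutral amino acids, averaged 32.4 TPM in siControl and 34.4 in siTDP-43, against 149 in wild type and 80.6 in N352S (log2 change with N352S -0.88, limma adjusted p = 2.93e-05). SLC7A11, the cystine transporter, was at 10.5 mean TPM in wild type and 4.05 in N352S (log2 change -1.19, limma adjusted p = 0.000355), and at 0.377 in both siRNA groups. SLC3A2, the heavy chain shared by both transporters, fell with N352S (log2 change -0.37) and rose slightly on depletion (0.17, limma adjusted p = 0.0245).

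For proline, aspartate and alanine synthesis, 7 of 11 genes fell on depletion and none rose, and with N352S 5 fell and 2 rose. With N352S only 1 fell without wild type 79 or N352S 82 and 3 fell without wild type 80 or N352S 81, and 1 rose in most of these fits. ASS1, the urea cycle enzyme that joins citrulline and aspartate, fell from 7.09 to 1.82 mean TPM on depletion and rose from 16.9 to 39.7 with N352S (log2 changes -1.54 and 1.18, limma adjusted p of the difference = 0.000100). GPT2, the mitochondrial alanine aminotransferase, fell in both experiments (log2 changes -0.50 and -0.48). Of the other folate and glycine enzymes, 6 of 20 tested genes fell on depletion, beside 19.8% of all tested genes, and none rose, and with N352S 4 fell (2 without wild type 79 or N352S 81) and 1 rose. ALDH1L2, the mitochondrial enzyme that oxidises formyl-folate, fell from 2.19 to 1.35 mean TPM on depletion and from 18.3 to 11.2 with N352S. SFXN3, a mitochondrial serine carrier, rose with N352S (log2 change 0.49, limma adjusted p = 0.000355).

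Of the methionine cycle and transsulfuration genes, 3 of 10 tested genes fell on depletion, beside 19.8% of all tested genes, and 4 with N352S, beside 11.9% (2 without wild type 79, wild type 80 or N352S 82), and none rose. MAT2A, which makes S-adenosylmethionine, was at 323 mean TPM in wild type and 237 in N352S (log2 change -0.45, limma adjusted p = 0.000192). The list of chaperone targets of ATF6 and XBP1, the other arms of the endoplasmic reticulum response, is called chaperones below. Not all of its 16 genes are chaperones, since it also holds XBP1, ATF6, ERN1, SEL1L and EDEM1. With N352S 11 of 16 fell and 1 was higher, and on depletion 8 of 16 fell and none was higher. The count on depletion was 4 without siTDP-43 1 or siTDP-43 2 and 5 without siTDP-43 3, and 1 was higher without siControl 3. HSPA5, the main chaperone of that compartment, was at 304 mean TPM in wild type, 152 in N352S, 171 in siControl and 151 in siTDP-43, and its log2 change was -0.997 with N352S and -0.18 on depletion.

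Against siControl, where 14.8% of all tested genes were higher and 24.8% lower, the wild-type libraries were higher in 11 of 13 stress targets (1 lower), 12 of 16 chaperones (none lower), 7 of 11 transporters (none lower), 6 of 10 bZIP regulators (2 lower) and 6 of 11 genes of proline, aspartate and alanine synthesis (2 lower). They were higher in 3 of 20 folate and glycine enzymes (4 lower), 2 of 10 methionine genes (3 lower) and 2 of 12 kinases and eIF2 factors (4 lower). The counts of those last lists lie near the shares of all tested genes. Without wild type 79, 1 methionine gene and 2 kinases and eIF2 factors were lower. Without wild type 80, 1 kinase or eIF2 factor was higher and 1 bZIP regulator lower, and without siControl 3 also 1 bZIP regulator was lower. The median log2 difference was 1.17 for the transporters, 1.11 for the stress targets and 0.49 for the chaperones, and -0.06 for the folate enzymes and -0.09 for the kinases and eIF2 factors, beside -0.06 over all tested genes. The counts on depletion depended on scaling. With median-of-ratios scaling 3 chaperones were lower and 3 higher, 4 stress targets lower and 3 higher, 3 transporters lower and 3 higher, 6 genes of proline, aspartate and alanine synthesis lower and 2 higher, and 4 kinases and eIF2 factors lower with none higher. Of the folate and glycine enzymes 5 were then lower and 1 higher, of the methionine genes 2 lower and 1 higher, and of the bZIP regulators 6 lower and none higher.

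**Figure D5:**
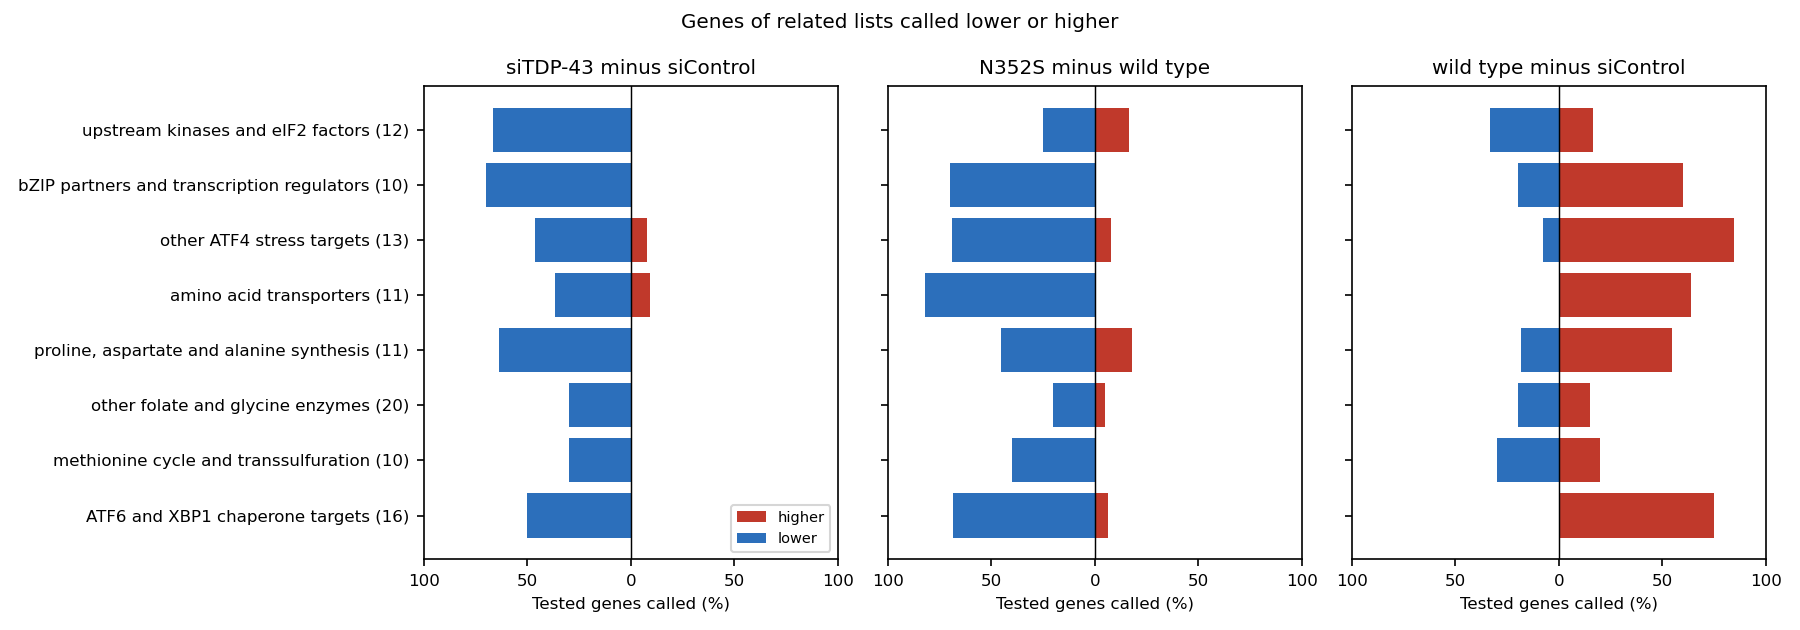
Share of tested genes called lower (bars to the left) or higher (bars to the right) at an adjusted p under 0.05 in each of 8 lists (number tested in parentheses), for depletion, for N352S and for wild type minus siControl. Stress targets, transporters and chaperones extend furthest to the left with N352S together with bZIP regulators, and furthest to the right in wild type minus siControl.

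Over the 10 libraries, the tested protein-coding genes outside the 10 that lay nearest to ATF4 in profile were CHAC1, CDC42EP1, CPLX2, SARS and ADM2, with root mean square differences of 0.062 to 0.0911 between z-scored log2 levels. Nearest to ASNS were SARS, CDC42EP1, TSC22D3, FAM129A and CARS, with SARS at 0.043. Nearest to PSAT1 were GPX4, SCRT2, SESN2, KCNAB1 and CPLX2, starting from 0.105, and nearest to DDIT3 were CPLX2, SLC3A2, EVL, EML6 and CDC42EP1, starting from 0.0778. Of the 10 genes, ASNS ranked 1 among all tested genes by nearness to ATF4, PHGDH 7 and DDIT3 8. MTHFD2 ranked 28, TRIB3 33, PSPH 34, PSAT1 63, SHMT2 73 and ATF3 339. Each of these genes had a higher mean in the genotype groups than in the siRNA groups. The genes they were matched to share that gap, so it follows from the choice. Nearness was computed over both experiments together, and shared regulation was not tested.

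The levels were also set beside those of the genes next to each locus. The 10 nearest tested protein-coding genes on each side (14 in total for TRIB3, near a chromosome end) had a median log2 difference between wild type and siControl of -0.24 to 0.13, depending on the locus, and between N352S and wild type of -0.11 to 0.13. In wild type against siControl, no locus had a neighbour median near the 0.90 to 2.68 of the 10 genes themselves. On depletion the neighbour medians ran from -0.19 to 0.07, inside the -0.99 to 0.08 of the 10 genes. The stretch that held the neighbours ran from 0.725 Mb for DDIT3 to 28.7 Mb for PHGDH. DDIT3 overlaps MARS on the opposite strand, and whether counting used strand is not stated, so their reads may not be separated. MARS averaged 236 ± 11.4 TPM (SD, n = 3) in siControl and 193 ± 17.6 (n = 3) in siTDP-43, against 362 ± 1.10 (n = 2) in wild type and 320 ± 13.0 (n = 2) in N352S. It lay above DDIT3 in every group, and it fell on depletion, where DDIT3 did not pass the test (MARS log2 change -0.29, limma adjusted p = 0.0113). Pseudogene copies can take reads from a gene, and ATF4, ASNS, PSAT1, PSPH and MTHFD2 have rows named as such copies. How alike their sequences are was not examined. The summed copies reached at most 6.72 TPM for ATF4, 1.5 for MTHFD2 and 0.25 for PSAT1 in any library. The pseudogene PSPHP1 ranged from 3.12 to 13.7 TPM with its highest value in siControl 3, and ASNSP1 was at 0.15 to 0.87 TPM in the siRNA libraries and 8.23 to 11.5 in the genotype libraries.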

How the data were processed

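The values are TPM that the authors computed and deposited for 10 libraries. The submitters' processing notes name STAR, RSEM and the build hg38, without roles or versions. The gene annotation is not given in the sources used here. The labels' protocols name Trizol for extraction and an Illumina TruSeq RNA kit. TPM summed to 999999 to 1000000 in each library and keep no depth, so depth is unknown and no counting interval or floor is given. As shares of a total, TPM of all genes fall when abundant transcripts rise.

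Levels were analysed as log2(TPM + 1), which understates changes of low genes. The 17118 genes that reached 1 TPM on average were fitted in limma 3.58.1 (R 4.3.3), with 4 group means, a variance trend and 6 residual degrees of freedom, so the pairs of genotype libraries are assumed to vary like the siRNA libraries. P-values were Benjamini-Hochberg adjusted over all tested genes, and genes under 0.05 were called lower or higher. SEs are those of the fit. The script was tested on simulated data. Gene positions came from GENCODE release 29 (57836 of 58174 identifiers), all 140 genes of the lists matched (3 by identifier), and promoters came from RefSeq. Figures were drawn with matplotlib.

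The members and the lists were chosen with earlier results of these data known. Genes named are the 10, TARDBP, up to 3 genes per list with the smallest adjusted p in each main comparison, and the 5 genes nearest in profile to ATF4, ASNS, PSAT1 and DDIT3. MARS, PSPHP1 and ASNSP1 were named after their values were seen. Not every gene that the rule takes is described.

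The titles of the siRNA libraries carry the numbers 1 to 3 in each group. Across genes, same-numbered libraries deviated together from their group means (correlations of 0.137 to 0.336, against -0.267 to 0.091 for different numbers). The numbers were therefore taken to pair them, which the titles do not state, and a fit with the number as a block was run. Genotype libraries carry different numbers. Other alternatives were pseudocounts of 0.1 and 5, no filter or 5 TPM, other scalings, other variance models, only the groups compared, and each library left out.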

Additional observations from a re-analysis of the deposited data

Results flagged for a closer look

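For 4 genes the change on TDP-43 depletion differed from the change with N352S by a test of the difference itself (knockdown minus mutation, log2 scale, limma adjusted p under 0.05). The difference was -0.91 for ATF3, which was at 45.5% of control on depletion and at 94.3% of wild type with N352S. It was 0.57 for MTHFD2, at 100.2% of control on depletion and 67.2% of wild type with N352S. For DDIT3 it was 0.30, with levels at 105.7% and 85.3%. For SHMT2 it was -0.38, with levels at 88.8% and 116.0%, and neither of its separate changes passed the test. The call of the difference was lost in 13 of 20 alternatives for SHMT2 and in 2 of 20 for DDIT3.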

How the results depend on the processing

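All 10 genes were higher in wild type and in N352S than in siControl in each of 20 alternatives. Of 210 single-gene values for depletion 193 kept direction and call, of 200 for N352S against wild type 185, and of 200 for the difference of effects 159. These totals include fits that left out a library of a group not compared. Such fits could not move the log2 change, only the estimate of spread, so agreement there says little. Leaving out 1 library at a time gave 4 to 6 genes lower and 0 to 1 higher on depletion, 5 to 8 lower with N352S, and for the difference 1 to 2 lower and 1 to 3 higher. With a genotype library left out, the lone library is assumed to vary like the other groups. A fit of only the groups compared called 1 gene higher with N352S. For the difference, 1 gene was lower without a filter, without a variance trend, and with median-of-ratios scaling, quantile normalization or mitochondrially encoded genes left out, and in these last 3 settings 5 genes were higher. Signs turned only for estimates near 0 that had not passed the test. On depletion the PSPH log2 change became 0.0785 (median of ratios), 0.0834 (quantile), 0.0336 (mitochondrial genes out), and with 1 library left out it ranged from -0.0529 to 0.0264. That of MTHFD2 then ranged from -0.0251 to 0.0355. For the difference, TRIB3 became 0.0159 (pseudocount 5), 0.0014 (median of ratios), 0.0452 (quantile) and 0.0055 (mitochondrial genes out). PHGDH became 0.0262, 0.0815 and 0.0311 with those 3 scalings. With 1 library left out PHGDH ranged from -0.0541 to 0.0184 and ASNS from -0.0131 to 0.0533. The cause of these changes was not tested. With the replicate block the depletion counts stayed at 5 lower and 0 higher, the difference had 2 lower and 3 higher, and no other call changed than that of PSPH. The genotype libraries could not be paired.

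Over all tested genes, depletion calls were 3389 lower and 1059 higher, against 2077 and 1944 with median-of-ratios scaling, 2015 and 1932 with quantile normalization, and 2166 and 680 without a filter. Without siTDP-43 3, 669 were higher. For N352S, 2033 lower and 1417 higher became 990 and 901 in a fit of only the groups compared and 1019 and 813 without wild type 79. Without wild type 80 and without N352S 82, 1239 and 1242 were lower, and without N352S 81, 918 were higher. Without wild type 79 the difference had 882 higher instead of 1404, and wild type minus siControl 2788 lower and 1669 higher instead of 4239 and 2537. Depth is unknown for all libraries, so what it limits cannot be stated.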
